A study of Mus musculus with 16 samples.

Results

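The regulators described here are 10 genes of the 46078 in the count table: the coactivators Ppargc1a (PGC-1α) and Ppargc1b (PGC-1β), the corepressor Nrip1 (RIP140), the fatty acid receptors Ppara, Ppard and Pparg, the oestrogen-related receptors Esrra, Esrrb and Esrrg (ERRα, ERRβ and ERRγ), and the nuclear respiratory factor Nrf1. They were taken by name, each matched to 1 Ensembl identifier. All 10 passed the filter on low counts in every comparison. They were measured in 16 libraries of fat, all labelled as from female C57BL/6 wild-type mice aged 16 weeks, in 4 groups of 4. BAT_5C is brown fat of mice housed in the cold, BAT_30C brown fat of mice that stayed at 30 °C, WAT_5C inguinal white fat of cold-housed mice and WAT_30C inguinal white fat of mice at 30 °C. Every mouse was born and weaned at 30 °C, and the cold groups, once 10 to 12 weeks old, spent 2 weeks at 18 °C and then 3 weeks at 5 °C. Food was removed 2 to 3 h before collection in all groups.

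Peroxisome proliferator-activated receptors (PPARs) bind fatty acids and their derivatives and, paired with a retinoid X receptor, switch on genes of fat storage and fat burning. Oestrogen-related receptors (ERRs) have no known natural hormone and drive genes of the citric acid cycle and the respiratory chain. PGC-1 coactivators carry no DNA-binding domain of their own: they dock on PPARs, ERRs and NRF1 and raise transcription there, while RIP140 docks on the same receptors and lowers it. In brown fat, noradrenaline released in the cold raises Ppargc1a through cyclic AMP within hours, and the tissues here were collected after weeks.

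Several libraries carry limits of their own. Depth lay between 54264023 and 71289020 counts. Brown fat is labelled as an inguinal depot, yet Ucp1, the uncoupling protein of brown fat, stood at 633.5 CPM (counts scaled to the effective library size) or more in all 8 brown fat libraries and at 398.6 CPM or less in white fat. Titles and housing labels set the groups, and for BAT_5C replicates 1 and 2 and BAT_30C replicates 3 and 4 a further source label names the other temperature. Ucp1 was 12388 to 13787.1 CPM in BAT_5C and 633.5 to 2019.1 CPM in BAT_30C. WAT_5C replicate 1, labelled female, held only 3 Xist counts where every other library held at least 11136, and its 4 Y-linked genes summed to 17183 counts where no other library exceeded 45. By these counts the tissue of that library is male, against its label. Mammary epithelium markers, 14 in number, summed to 15.6 CPM there, while the remaining white fat ranged from 869.2 to 1414.6 CPM. Its 13 skeletal muscle markers summed to 6285.2 CPM, those of WAT_5C replicates 2 to 4 to 9.87, 81.5 and 211.7 CPM and those of WAT_30C to 107.4, 2325.5, 9262.1 and 2063.6 CPM. Without WAT_5C replicate 1 the median log2 fold change of the 11 muscle markers tested in white fat was -5.11, none passing, and their part in the white fat results was not tested. White fat fold changes of the 10 genes are therefore given with and without it. Nothing in the labels ties each library to its own mouse, and p-values measure the spread between libraries. In whole tissue, fewer cells of a type and less RNA per cell cannot be told apart.

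Promoters are shown for 3 members whose RNA changed in brown fat: Ppara, because its window holds a motif bound by another member, and Esrra and Ppard, because their levels rose by nearly the same amount. RefSeq (GRCm38.p6) lists 17 promoter windows for 9 of the 10 genes, each from 250 bases before to 50 bases after a start, and Ppargc1b has no entry used here. The windows were searched on both strands for an ERR element (TNAAGGTCA), a PPAR direct repeat (2 copies of AGGTCA with any 1 base between them), the palindromic NRF1 element and a cyclic AMP element (TGACGTCA). The only match was an NRF1 element in Ppara, which begins 31 bases before the annotated start. Its letters, the pattern searched, are printed in capitals. Of all 32851 windows, 0.971% hold that element, 1.28% the ERR element, 0.0396% the PPAR repeat and 1.79% the cyclic AMP element. A match is a run of letters and not a measured binding site, and a window without one says only that these letters are not in it. The Ppara window is chr15:85735526-85735825 on the plus strand, that of Esrra chr19:6921759-6922058 on the minus strand and that of Ppard chr17:28232504-28232803 on the plus strand, with 74.7%, 66% and 68.3% of bases being G or C.
Ppara: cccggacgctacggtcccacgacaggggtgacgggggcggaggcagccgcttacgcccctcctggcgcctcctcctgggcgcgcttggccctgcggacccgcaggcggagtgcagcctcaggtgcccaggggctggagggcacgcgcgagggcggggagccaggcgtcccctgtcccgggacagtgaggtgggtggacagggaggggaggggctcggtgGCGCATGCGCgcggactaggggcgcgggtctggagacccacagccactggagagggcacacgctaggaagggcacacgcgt
Esrra: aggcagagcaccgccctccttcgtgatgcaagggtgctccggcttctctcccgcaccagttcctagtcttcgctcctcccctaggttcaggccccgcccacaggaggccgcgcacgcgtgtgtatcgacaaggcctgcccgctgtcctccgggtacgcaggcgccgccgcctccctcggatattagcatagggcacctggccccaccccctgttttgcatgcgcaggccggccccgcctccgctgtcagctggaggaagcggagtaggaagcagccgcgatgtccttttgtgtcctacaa
Ppard: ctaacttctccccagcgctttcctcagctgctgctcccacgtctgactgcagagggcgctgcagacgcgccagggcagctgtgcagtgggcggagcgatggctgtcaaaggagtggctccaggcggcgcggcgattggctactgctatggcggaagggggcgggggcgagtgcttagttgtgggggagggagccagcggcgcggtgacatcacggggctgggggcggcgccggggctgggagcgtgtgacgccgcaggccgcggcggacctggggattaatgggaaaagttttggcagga

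In brown fat the cold raised Esrra, Ppard and Esrrb and lowered Nrip1, Ppara and Nrf1, while Ppargc1a, Ppargc1b, Pparg and Esrrg did not pass the test. With 3 rises and 3 falls, 6 of the 10 genes passed an adjusted p of 0.05 (edgeR quasi-likelihood test, Benjamini-Hochberg adjustment over all 16213 genes tested). Of all genes tested, 59.5% passed, 29.2% upwards and 30.3% downwards, so 6 of 10 is close to the background. The median log2 fold change was 0.17 over the 10 genes and -0.05 over all genes. Scaling to library totals moved the median of all genes to -0.43 and left 20.8% of the calls upwards, against 49.1% here, with 3 of the 10 genes higher and 4 lower where 68.8% of all genes passed. Of 12 T and NK cell markers 9 fell, their sum being 2.22 to 5.82 CPM in BAT_5C and 9.39 to 13.1 CPM in BAT_30C, and 7 of 8 brown fat markers rose. The sum of 9 adipocyte markers, of which 4 rose and 4 fell, was 17063.5 to 18788.4 CPM in BAT_5C and 14107.1 to 17194.3 CPM in BAT_30C. Their part in the results was not tested.

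**Figure D1:**
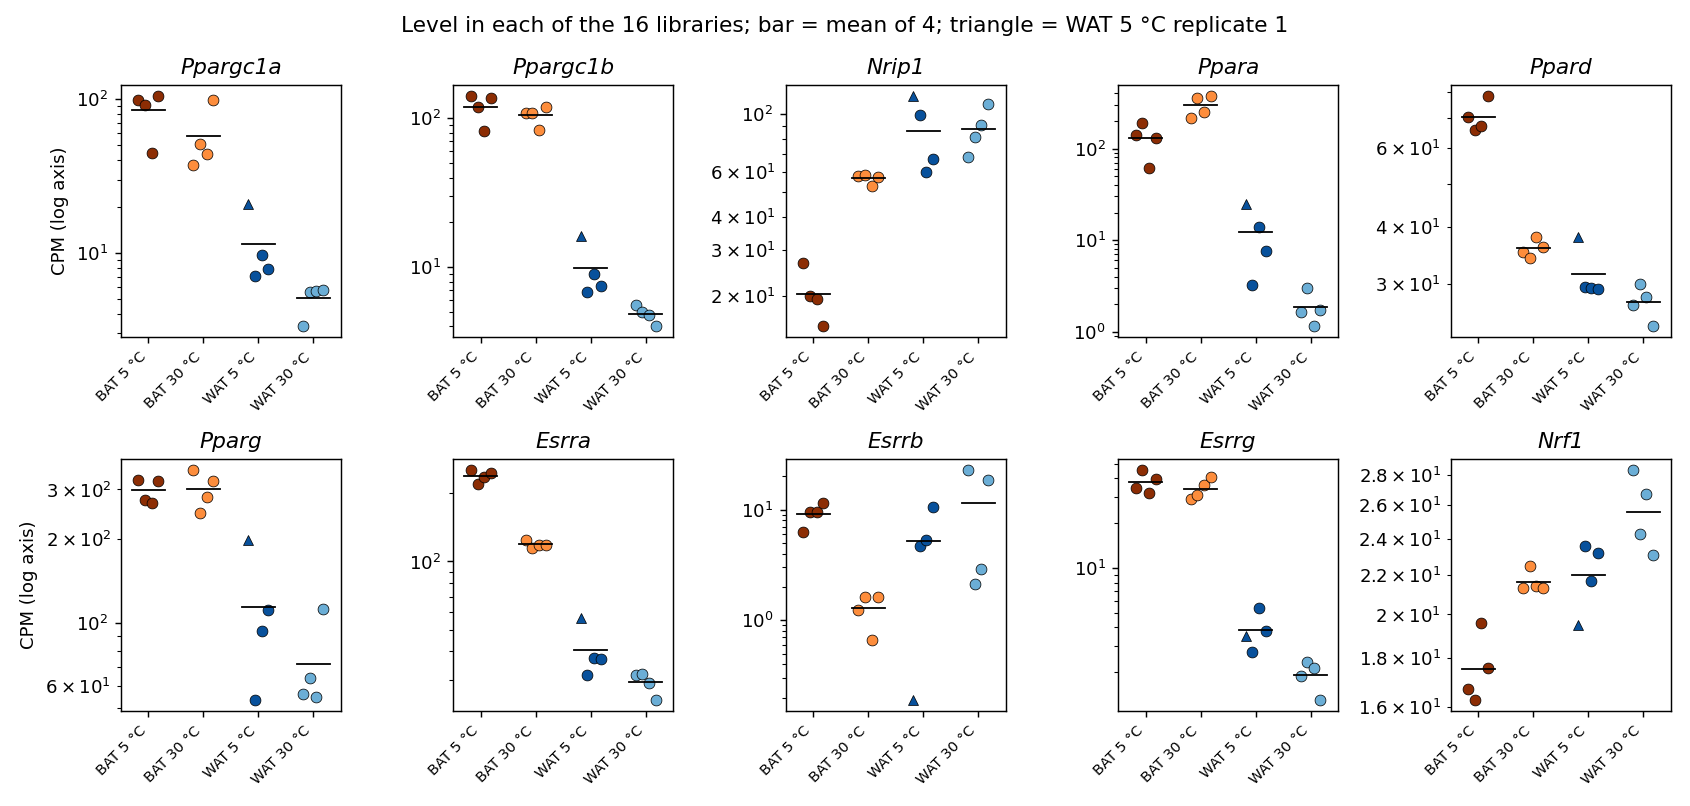
CPM of each of the 10 genes in every library on a log axis, by group, with 1 point per library in replicate order and a bar at the mean of 4. BAT_5C and BAT_30C do not overlap for Nrip1, Ppara, Ppard, Esrra, Esrrb and Nrf1, and the WAT_5C replicate 1 triangle is the highest of its group for Ppargc1a, Ppargc1b, Nrip1, Ppara, Ppard, Pparg and Esrra. How many of all genes have groups without overlap was not counted, so a lack of overlap has no background here.

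Among the coactivators, Ppargc1a had 99.4, 92.3, 44.5 and 104.2 CPM in BAT_5C replicates 1 to 4, against 37.4, 51.0, 43.7 and 98.9 CPM in BAT_30C. Replicate 3 of the cold group lay at the level of the warm group and replicate 4 of the warm group at that of the cold group, so the groups overlapped. The log2 fold change was 0.56 ± 0.34 (SE) with an adjusted p of 0.180 (edgeR). Leaving out each of the 8 libraries in turn gave 0.42 to 0.97, and 7 of these 8 fits did not pass. The fit that passed, at 0.97 with an adjusted p of 0.0149, was the one without BAT_30C replicate 4. The 13 skeletal muscle markers, a tissue that also makes Ppargc1a, summed to 664.5, 2246.0, 902.1 and 1.95 CPM in BAT_5C, against 1415.5, 291.9, 2.25 and 1372.4 CPM in BAT_30C, and their part in the level of Ppargc1a was not tested.

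Ppargc1b had 140.2, 119.2, 82.4 and 137.7 CPM in BAT_5C, against 108.1, 109.2, 83.4 and 118.4 CPM in BAT_30C. BAT_5C replicate 3 was again the lowest of its group, and the groups overlapped. Its log2 fold change was 0.20 ± 0.17 with an adjusted p of 0.344. Leaving out each library in turn gave 0.12 to 0.35, and 7 of the 8 fits did not pass. The fit that passed, at 0.35 with an adjusted p of 0.0364, was the one without BAT_5C replicate 3. When counts were scaled to library totals alone the change was -0.18. Per length of exon, Ppargc1b was the more abundant coactivator of the pair in both groups, with 30.0 ± 6.68 CPM per kb in BAT_5C and 26.3 ± 3.75 in BAT_30C (SD, n = 4), beside 12.9 ± 4.17 and 8.76 ± 4.25 CPM per kb for Ppargc1a.

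The corepressor fell. Nrip1, which encodes a protein that holds down Ucp1 and oxidative genes in mouse fat cells, had 26.7, 19.9, 19.4 and 15.3 CPM in BAT_5C, against 57.7, 58.1, 52.7 and 57.3 CPM in BAT_30C. The highest cold library lay far below the lowest warm one. It fell by 1.47 on the log2 scale (SE 0.14, adjusted p 1.62e-05), 2.78-fold lower.

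The ratio of Ppargc1a to Nrip1 counts within a library does not depend on scaling. It was 3.73, 4.64, 2.30 and 6.79 in BAT_5C, against 0.648, 0.877, 0.831 and 1.73 in BAT_30C, with no overlap. In white fat it was 0.178, 0.0712, 0.162 and 0.117 in WAT_5C, against 0.0491, 0.0679, 0.0618 and 0.0526 in WAT_30C, again with no overlap, WAT_5C replicate 1 counted or not. The mean ratios were 4.36 ± 1.88 in BAT_5C and 1.02 ± 0.481 in BAT_30C, and 0.132 ± 0.0480 in WAT_5C and 0.0579 ± 0.00858 in WAT_30C (SD, n = 4). An exact two-sided permutation test gave p = 0.0286 in each tissue, the smallest that 4 against 4 libraries allow, and 0.0571 adjusted over the 4 ratio tests. For Ppargc1a over Ppargc1b the mean ratio was 0.695 ± 0.107 in BAT_5C and 0.543 ± 0.209 in BAT_30C (exact permutation p = 0.257, adjusted 0.343), and 1.11 ± 0.110 in WAT_5C and 1.08 ± 0.344 in WAT_30C (exact permutation p = 0.857). None of the 4 ratio tests passed 0.05 after adjustment. Only the Ppargc1a to Nrip1 tests stood at the smallest p. With only these at that p, 0.0571 is the lowest adjusted value possible, so they could not reach the threshold.

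**Figure D2:**
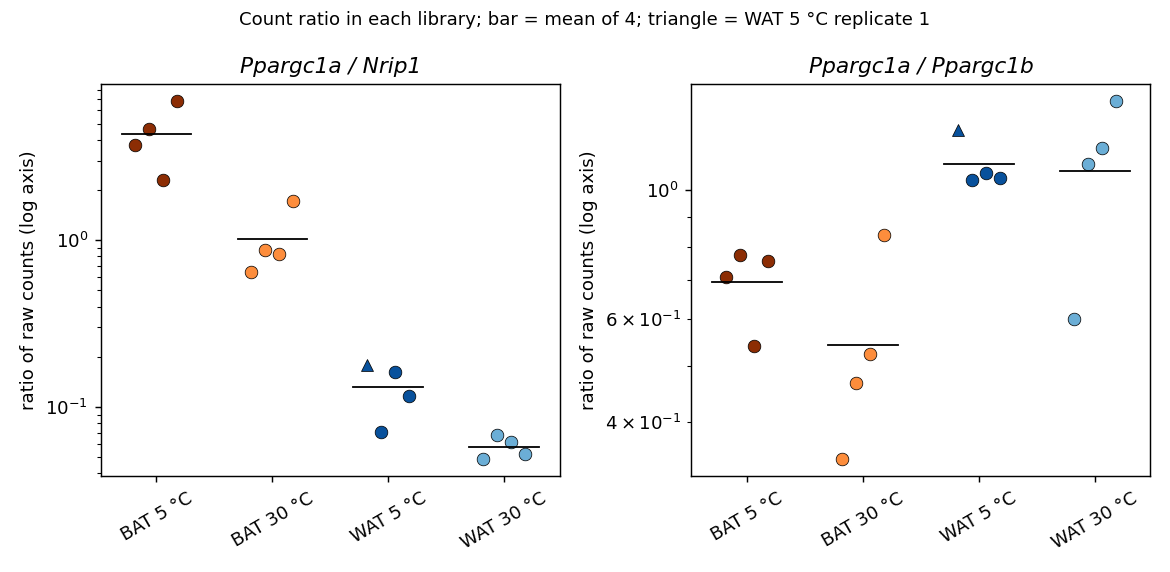
Ratio of raw counts within each library on log axes, for Ppargc1a over Nrip1 and for Ppargc1a over Ppargc1b, with a bar at the mean of 4. For Ppargc1a over Nrip1 the BAT_5C points lie between 2.30 and 6.79 and the BAT_30C points between 0.648 and 1.73, and the WAT points all lie at 0.178 or lower.

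Of the 3 PPARs, Ppara fell, Ppard rose and Pparg did not pass in brown fat. Ppara, the receptor that switches on fatty acid oxidation, had 141.5, 190.8, 62.0 and 129.6 CPM in BAT_5C, against 215.3, 360.3, 250.2 and 371.3 CPM in BAT_30C. The highest cold library lay below the lowest warm one, with a wide spread in each group. The fall was 1.19 on the log2 scale (log2 fold change -1.19 ± 0.31, adjusted p 0.00787). The direction was the same in a single fit of all 16 libraries, where the adjusted p was 0.0586.

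Ppard, a receptor that acts on fat burning in many tissues, had 70.2, 65.9, 67.2 and 78.1 CPM in BAT_5C, against 35.3, 34.2, 38.0 and 36.2 CPM in BAT_30C. The groups were narrow and far apart, with a log2 fold change of 0.97 ± 0.07 (adjusted p 3.02e-06). Pparg, without which fat cells do not form, had 324.9, 275.3, 269.0 and 322.3 CPM in BAT_5C, against 351.6, 247.5, 282.8 and 320.5 CPM in BAT_30C. These ranges coincide, the log2 fold change being -0.01 ± 0.12 (adjusted p 0.947), and with library totals the value was -0.40 and its adjusted p 0.0170.

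Since CPM per kb allow a comparison between genes, the make-up of the family can be given. Ppara made up 23.1 ± 7.73% of the summed PPAR level in BAT_5C and 42.0 ± 8.78% in BAT_30C, Ppard 6.56 ± 0.873% and 2.61 ± 0.318%, and Pparg 70.4 ± 6.94% and 55.4 ± 8.65% (SD, n = 4, no test run on the shares). Ppara ranged from 13.9 to 32.8% in BAT_5C and from 31.2 to 51.5% in BAT_30C, so that its share overlapped slightly between the groups. The shares of Ppard did not overlap.

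**Figure D3:**
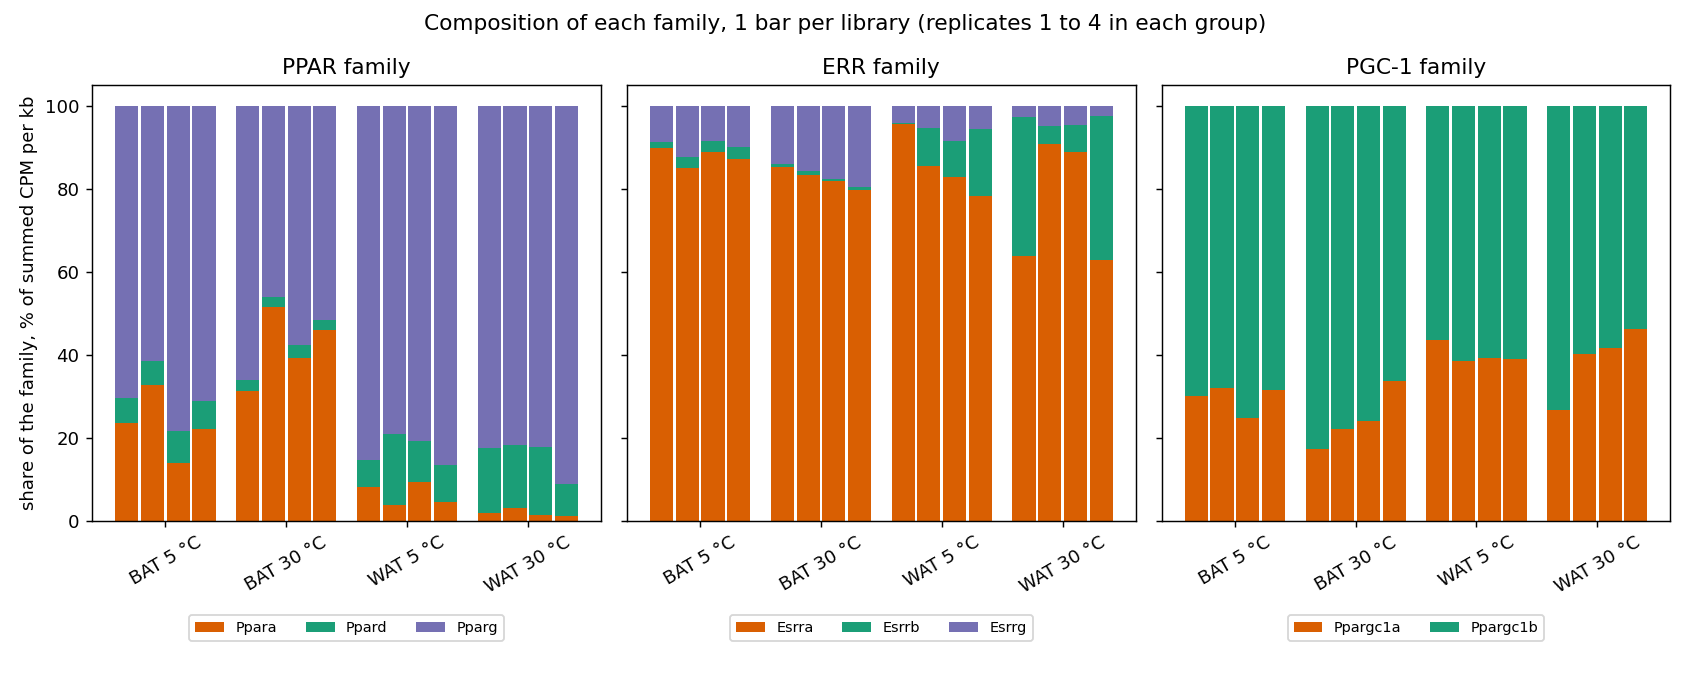
Share of each member in the summed CPM per kb of its family, 1 stacked bar per library, in the order BAT_5C, BAT_30C, WAT_5C and WAT_30C. Ppara averages 23.1% of the PPAR family in BAT_5C, 42.0% in BAT_30C, 6.41% in WAT_5C and 1.81% in WAT_30C, and Esrrb is a visible share of the ERR family in all white fat libraries except WAT_5C replicate 1. Ppargc1b is the larger part of the PGC-1 pair in every library.

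Among the ERRs, Esrra and Esrrb rose in brown fat and Esrrg did not pass. Esrra, the most abundant of the 3 per length in every group, had 253.6, 220.7, 236.0 and 246.6 CPM in BAT_5C, against 123.9, 115.0, 118.6 and 118.4 CPM in BAT_30C. The lowest cold library was above the highest warm one by more than the range of either group. The log2 fold change was 1.01 ± 0.06 (2.01-fold, adjusted p 1.07e-06). Its exons overlap those of Trmt112 on the other strand by 73 bases and hold the microRNA gene Mir6990, and whether the counting used strand is not given, so a small part of its counts may belong to these.

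Esrrb, best known from mouse embryonic stem cells and the placenta, was the rarest of the 10 in brown fat. It had 6.31, 9.54, 9.54 and 11.4 CPM in BAT_5C, against 1.25, 1.61, 0.668 and 1.61 CPM in BAT_30C, from 223 to 463 and from 33 to 87 counts. All cold libraries were above all warm ones, the log2 fold change being 2.84 ± 0.29 (7.17-fold, adjusted p 2.52e-05). Per length it stood at 1.52 ± 0.352 CPM per kb in BAT_5C beside 54.5 ± 3.27 for Esrra. The 14 mammary epithelium markers, which sum high in white fat where Esrrb is also found, summed to 0.453, 60.9, 21.8 and 9.17 CPM in BAT_5C, against 1.86, 23.1, 1.66 and 1.61 CPM in BAT_30C. Their part in the result was not tested. Esrrg, a form with high levels in oxidative tissues such as heart and brown fat, had 31.9 to 45.5 CPM in BAT_5C and 29.0 to 40.8 CPM in BAT_30C. Its ranges overlapped, with a log2 fold change of 0.15 ± 0.13 (adjusted p 0.362), or -0.23 with library totals.

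Nrf1, which turns on nuclear genes for mitochondrial proteins, had 16.7, 16.3, 19.6 and 17.6 CPM in BAT_5C, against 21.3, 22.5, 21.4 and 21.3 CPM in BAT_30C. The groups did not overlap and the fall was the smallest that passed among the 10, with a log2 fold change of -0.30 ± 0.07 (adjusted p 0.00528). In the 4 libraries whose labels all match it was -0.23 with an adjusted p of 0.156, and the other 5 calls in brown fat held there.

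**Figure D4:**
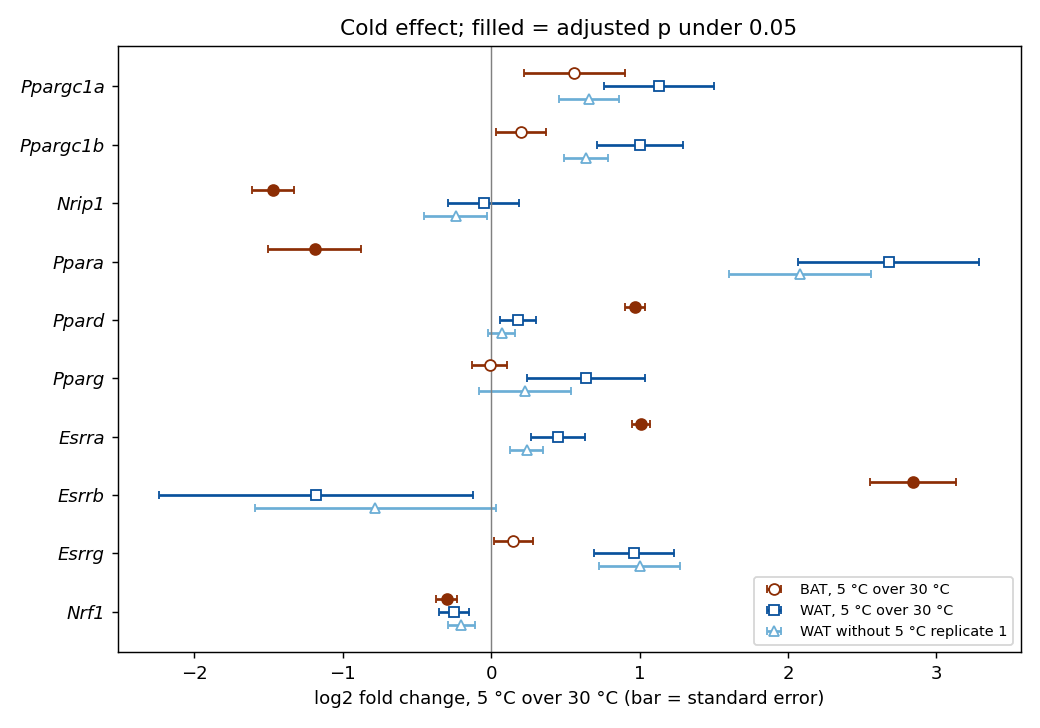
Log2 fold change of 5 °C over 30 °C with its standard error, for BAT, for WAT and for WAT without WAT_5C replicate 1; filled points passed an adjusted p of 0.05. Filled points occur for 6 genes in BAT and for none in WAT, and Ppara lies at -1.19 in BAT and at 2.68 in WAT.

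In white fat none of the 10 genes passed at 5 °C against 30 °C by the edgeR test, where 12 of 18975 genes passed, or 0.0632%. Leaving out WAT_5C replicate 2 gave 273 genes and 1 of the 10, Ppara, and leaving out any library other than WAT_5C replicates 1 and 2 gave 0 or 1 gene. At an unadjusted p under 0.05 there were 6, namely Ppargc1a, Ppargc1b, Ppara, Esrra, Esrrg and Nrf1. DESeq2, which called 5.90% of all genes, and limma-voom with quality weights, which called 12.0%, each called 4, and both called Ppargc1a, Ppargc1b, Ppara and Esrrg. Without WAT_5C replicate 1 the edgeR test again called 0 of the 10, with 408 genes or 2.11% called over the whole table and 4 members at an unadjusted p under 0.05, and DESeq2 (12.5% of all genes) and limma-voom (10.2%) each called the same 4. The median log2 fold change over the 10 was 0.54 with all libraries and 0.24 without replicate 1, beside -0.01 and -0.02 over all genes.

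Ppara had 24.8, 3.20, 13.9 and 7.57 CPM in WAT_5C, against 1.66, 2.97, 1.16 and 1.74 CPM in WAT_30C. Every cold library was above every warm one, the nearest pair being 3.20 and 2.97 CPM. The log2 fold change was 2.68 ± 0.61 (6.41-fold, adjusted p 0.134), 2.08 ± 0.48 with an adjusted p of 0.0684 without WAT_5C replicate 1, and 3.00 with an adjusted p of 0.0362 without WAT_5C replicate 2. Ucp1 was 67.2, 6.08, 398.6 and 128.6 CPM in the same 4 cold libraries and at most 0.324 CPM in WAT_30C, and replicate 2 was the lowest for both genes.

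Ppargc1a had 20.8, 7.07, 9.63 and 7.84 CPM in WAT_5C, against 3.35, 5.54, 5.62 and 5.73 CPM in WAT_30C. The groups did not overlap, and replicate 1 was well above the other cold libraries. The log2 fold change was 1.13 ± 0.37 (adjusted p 0.216), and 0.66 ± 0.20 (adjusted p 0.116) without replicate 1. Ppargc1b had 16.3, 6.79, 9.01 and 7.46 CPM in WAT_5C, against 5.57, 5.00, 4.76 and 4.04 CPM in WAT_30C. Again the groups did not overlap and replicate 1 was highest. The log2 fold change was 1.0 ± 0.29 (adjusted p 0.186), or 0.64 ± 0.15 (adjusted p 0.0679) without replicate 1.

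Esrrg was the 1 gene of these 4 whose value was not smaller without replicate 1: 3.49, 2.72, 5.42 and 3.76 CPM in WAT_5C, against 1.89, 2.35, 2.14 and 1.31 CPM in WAT_30C. The groups did not overlap. Its log2 fold change was 0.96 ± 0.27 (adjusted p 0.185), or 1.0 ± 0.27 (adjusted p 0.0911) without replicate 1.

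For the other 6 genes the white fat groups overlapped. The share of all genes whose groups do not overlap was not counted in either tissue. A lack of overlap is thus given without a background. Esrra had 31.3 to 56.3 CPM in WAT_5C and 24.5 to 31.9 CPM in WAT_30C (log2 fold change 0.45 ± 0.18, adjusted p 0.267), and without replicate 1 the value was 0.24 ± 0.11 (adjusted p 0.242). Ppard had 38.0 CPM in WAT_5C replicate 1 and 29.2 to 29.5 CPM in the other cold libraries, against 24.2 to 30.0 CPM in WAT_30C (0.18 ± 0.12, adjusted p 0.412, or 0.07 ± 0.09, adjusted p 0.669, without replicate 1). Apart from replicate 1, the cold values of Ppard lie within the warm range.

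Pparg had 198.1, 53.5, 93.6 and 111.8 CPM in WAT_5C, against 55.9, 63.8, 54.8 and 112.9 CPM in WAT_30C (0.64 ± 0.40, adjusted p 0.386), and the log2 fold change was 0.23 ± 0.31 (adjusted p 0.696) without replicate 1. The summed level of 9 adipocyte markers was 21446.0, 5666.1, 8186.9 and 8469.6 CPM in the same cold libraries, against 3681.8, 5666.7, 5251.1 and 6274.8 CPM in WAT_30C. That sum is highest and lowest within WAT_5C in the same libraries as Pparg. Adipoq, Plin1, Lipe, Cidec, Pnpla2 and Fabp4 of these markers are also counted among the PPAR target genes below. The sum and that list are therefore not separate measures, and the part of adipocyte content in the white fat values was not tested. Sums of 12 T and NK cell markers were 134.3 to 602.8 CPM in WAT_5C and 631.5 to 916.0 CPM in WAT_30C, and their part was not tested either.

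Nrip1 had 116.8, 99.3, 59.6 and 67.0 CPM in WAT_5C, against 68.2, 81.6, 90.8 and 108.9 CPM in WAT_30C. The ranges overlap almost throughout, the log2 fold change being -0.05 ± 0.24 (adjusted p 0.912), or -0.24 ± 0.21 (adjusted p 0.512) without replicate 1. Nrf1 had 19.5 to 23.6 CPM in WAT_5C and 23.1 to 28.3 CPM in WAT_30C (-0.25 ± 0.10, adjusted p 0.267, or -0.20 ± 0.09, adjusted p 0.228, without replicate 1). Esrrb was the least even of all: 0.192, 4.67, 5.36 and 10.6 CPM in WAT_5C, against 22.7, 2.12, 2.90 and 18.6 CPM in WAT_30C. The log2 fold change was -1.18 ± 1.06 (adjusted p 0.544), or -0.78 ± 0.81 (adjusted p 0.597) without replicate 1, with a pair of warm libraries high and a pair low. Mammary epithelium markers summed to 15.6, 1362.8, 1414.6 and 1407.4 CPM in the same cold libraries and to 1411.4, 869.2, 968.4 and 1246.2 CPM in the warm ones. The cold library with almost no Esrrb is the one with almost none of these markers, and their part in the result was not tested.

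The cold effect differed between the tissues for 4 of the 10 genes, tested as the effect in BAT minus that in WAT in 1 fit of all 16 libraries. Over all 19481 genes 20.8% passed that test, 8.34% upwards and 12.5% downwards. Ppara differed by -3.90 ± 0.71 on the log2 scale (adjusted p 0.00141), and by -3.27 (adjusted p 0.000987) without WAT_5C replicate 1. Its mean at 5 °C was lower in brown fat and higher in white fat. The white fat change did not pass in white fat alone (edgeR, adjusted p 0.134). In the edgeR fit of all 16 libraries, the cold effect had an adjusted p of 0.0586 in brown fat and 0.00784 in white fat. Nrip1 differed by -1.45 ± 0.29 (adjusted p 0.00291), with separate groups in brown fat and overlapping ones in white fat. Ppard differed by 0.76 ± 0.13 (adjusted p 0.00104) and Esrrb by 3.99 ± 1.20 (adjusted p 0.0288), where Ppard rose in brown fat and did not pass in white fat, and Esrrb rose in brown fat and had a log2 fold change of -1.18 that did not pass in white fat. Without WAT_5C replicate 1 these differences were -1.22 ± 0.26 for Nrip1 (adjusted p 0.00286), 0.91 ± 0.11 for Ppard (adjusted p 3.62e-05) and 3.64 ± 0.93 for Esrrb (adjusted p 0.00840). The call on Esrrb was lost without any 1 of BAT_5C replicate 4, BAT_30C replicates 1 and 3 and WAT_30C replicates 1 and 4, where its adjusted p ran from 0.0510 to 0.0655. Esrra differed by 0.53 ± 0.20 (adjusted p 0.0734), and by 0.78 ± 0.13 (adjusted p 0.000489) without WAT_5C replicate 1. Without that library 6 of the 10 passed, Esrra and Esrrg being added (Esrrg -0.84 ± 0.30, adjusted p 0.0458), where 31.3% of all genes passed. For Esrrg the difference between the cold effects was -0.85 with all libraries (adjusted p 0.0519). That difference also passed without BAT_5C replicate 2, BAT_30C replicate 1, WAT_5C replicate 2 or WAT_30C replicate 2, at -0.92 to -0.98. For Ppargc1b the difference (-0.83, adjusted p 0.0969) passed without WAT_5C replicate 2 (-0.98, adjusted p 0.0484). The cold effect on Ppargc1a differed by -0.60 ± 0.53 (adjusted p 0.464), or -0.09 ± 0.45 without replicate 1.

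Between the tissues at 30 °C all 10 genes differed, 7 higher in brown fat and 3 lower, where 69.8% of all genes differed (34.5% higher and 35.3% lower). The widest gap was that of Ppara, with 299.3 ± 78.3 CPM in BAT_30C and 1.88 ± 0.768 CPM in WAT_30C, a log2 difference of 7.31 ± 0.64 (adjusted p 1.61e-07). Ppargc1b stood at 104.8 ± 15 CPM in BAT_30C and 4.84 ± 0.635 CPM in WAT_30C (4.43 ± 0.28, adjusted p 1.12e-08). Esrrg stood at 34.2 ± 5.33 and 1.93 ± 0.449 CPM (4.15 ± 0.23, adjusted p 4.98e-09), and Ppargc1a at 57.8 ± 28.0 and 5.06 ± 1.14 CPM (3.51 ± 0.41, adjusted p 3.10e-06). Pparg and Esrra differed less, by 2.07 ± 0.32 and 2.03 ± 0.15 on the log2 scale, and Ppard least of the 7 higher in brown fat, by 0.40 ± 0.09, which turned to -0.45 with library totals (adjusted p 0.000271).

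Lower in brown fat at 30 °C were Nrip1, with 56.5 ± 2.55 CPM in BAT_30C and 87.4 ± 17.1 CPM in WAT_30C (log2 difference -0.63 ± 0.21, adjusted p 0.0134), Nrf1 (-0.24 ± 0.09, adjusted p 0.0192) and Esrrb (-3.17 ± 0.89, adjusted p 0.00536). Nrip1 was at -0.50 (adjusted p 0.0503) without WAT_30C replicate 4, and Nrf1 at -0.19 (adjusted p 0.0725) and -0.22 (adjusted p 0.0512) without WAT_30C replicates 1 and 3. At 5 °C, 9 of 10 differed, where 72.4% of all genes did (31.8% higher and 40.5% lower), 7 being higher in brown fat and 2 lower. The counts were the same without WAT_5C replicate 1, where 76.2% of all genes differed (34.0% higher and 42.2% lower). Nrip1 was then 20.3 ± 4.68 CPM in BAT_5C and 85.7 ± 27.0 CPM in WAT_5C (-2.08 ± 0.22, adjusted p 7.66e-07), and Ppara 131.0 ± 53.0 and 12.4 ± 9.37 CPM (3.41 ± 0.53, adjusted p 3.89e-05). Esrrb no longer differed past the threshold, with 9.21 ± 2.13 CPM in BAT_5C and 5.21 ± 4.28 CPM in WAT_5C (0.82 ± 0.82, adjusted p 0.381). Without WAT_5C replicate 1 these differences were -1.91 ± 0.19 for Nrip1, 3.98 ± 0.51 for Ppara and 0.41 ± 0.65 for Esrrb (adjusted p 0.576). Scaling to library totals lowered the share of upward calls to 16.3% at 30 °C, against 49.4%, and to 13.2% at 5 °C, against 44.0%.

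The order of the genes per length of exon differed between the tissues. Pparg led in all 4 groups, with 100.9 CPM per kb in BAT_5C, 101.8 in BAT_30C, 38.7 in WAT_5C and 24.3 in WAT_30C. Behind it came Esrra (54.5) and Ppara (34.1) in BAT_5C, Ppara (78.0) and Esrra (27.1) in BAT_30C, Esrra (9.25) and Nrip1 (7.48) in WAT_5C, and Nrip1 (7.62) and Esrra (6.65) in WAT_30C, as mean CPM per kb. In WAT_5C and WAT_30C alike the ranges of Esrra and Nrip1 overlap, so that their order there is not settled, and the same holds for Pparg and Ppara in BAT_30C. Nrip1 was thus at 7.62 ± 1.49 CPM per kb beside 0.767 ± 0.174 for Ppargc1a in WAT_30C, and at 1.77 ± 0.409 beside 12.9 ± 4.17 in BAT_5C. Across the groups, the mean level of Ppara ran BAT_30C, BAT_5C, WAT_5C, WAT_30C from high to low with no overlap between neighbours, and that of Nrip1 ran WAT_30C, WAT_5C, BAT_30C, BAT_5C, where only the WAT pair overlapped.

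Genes known as targets of these regulators were counted in the same libraries. The lists were chosen with earlier results of these data known, so their counts are no independent check. Some genes are in more than 1 list. Cidea, Cpt1b and Fabp3 are both PPAR targets and RIP140-repressed genes, and Acadm is both a PPAR and an ERR target. Perm1 is both an ERR target and a coregulator, and Ucp1 and Cidea are also brown fat markers. Of 23 ERR target genes, 22 rose in BAT_5C and 0 fell, where 29.2% of all genes rose, and their median log2 fold change was 0.73 beside -0.05 over all genes. Fbp2 (3.54 ± 0.25, adjusted p 2.12e-06), Uqcrfs1 of respiratory complex III (1.06 ± 0.07, adjusted p 1.12e-06), Sdha of complex II (0.97 ± 0.06, adjusted p 1.27e-06) and Ogdh of the citric acid cycle (1.18 ± 0.08, adjusted p 1.80e-06) were among them, and Slc25a4, the heart-type ADP/ATP carrier, did not pass (0.07 ± 0.06, adjusted p 0.332). With library totals 17 rose and 1 fell, where 2323 of all 16213 genes rose and 8831 fell.

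Of 35 PPAR target genes, 22 rose and 4 fell in BAT_5C, with a median of 0.50. Of all genes tested, 29.2% rose and 30.3% fell. Hadha, an enzyme of mitochondrial β-oxidation, rose by 1.84 ± 0.08 (adjusted p 1.20e-07), the monoglyceride lipase Mgll by 1.83 ± 0.09 (adjusted p 2.51e-07), Gpd1, which makes glycerol 3-phosphate, by 2.21 ± 0.14 (adjusted p 1.27e-06), and the lipid droplet protein Plin2 by 3.25 ± 0.25 (adjusted p 3.84e-06), all on the log2 scale. The 4 that fell were Angptl4, an inhibitor of lipoprotein lipase (-1.65 ± 0.19, adjusted p 5.32e-05), Adipoq, which encodes adiponectin (-0.88 ± 0.09), the glycerol channel Aqp7 (-0.79 ± 0.16) and Plin4 (-0.72 ± 0.15). With library totals 15 rose and 10 fell, where 2323 of all 16213 genes rose and 8831 fell.

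Of 15 NRF1 target genes, 10 rose and 3 fell, with a median of 0.27, where 29.2% of all genes rose and 30.3% fell. Tfb2m, a mitochondrial transcription factor, rose by 1.11 ± 0.07 (adjusted p 1.78e-06), Uqcrh of complex III by 0.82 ± 0.06 (adjusted p 2.01e-06), cytochrome c (Cycs, also among the ERR targets) by 0.67 ± 0.06 and the mitochondrial RNA polymerase Polrmt by 0.68 ± 0.07, while Alas1, the first enzyme of haem synthesis, fell (-0.53 ± 0.09, adjusted p 0.000826). With library totals the counts were 5 and 6, where 2323 of all 16213 genes rose and 8831 fell. Of 5 genes that RIP140 represses in mouse fat, 3 rose and 0 fell, a small list beside 59.5% of all genes passing, 29.2% upwards. Ucp1 (3.30 ± 0.38, adjusted p 4.99e-05), Slc2a4 (1.24 ± 0.07, adjusted p 6.13e-07) and Cidea (0.79 ± 0.13, adjusted p 0.000449) rose. Cpt1b (0.38 ± 0.22, adjusted p 0.167) and Fabp3 (-0.32 ± 0.17, adjusted p 0.139) did not pass. Scaled to library totals, 3 of the 5 rose and 1 fell, where 2323 of all 16213 genes rose and 8831 fell. Leaving out each of the 8 libraries in turn, 3 rose and 0 to 1 fell, Fabp3 passing in 1 fit.

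Of 19 partners and coregulators, 4 rose and 7 fell in BAT_5C, with a median of -0.07, and of 11 enzymes and factors that act on PGC-1, 3 rose and 3 fell, with a median of -0.13. Both counts are close to the background, where 59.5% of all genes passed, 29.2% upwards and 30.3% downwards. Perm1, an ERR-driven coregulator, rose by 1.48 ± 0.23 (adjusted p 0.000391) and Ncoa4 by 0.75 ± 0.10 (adjusted p 0.000133), while the corepressor Ncor1 fell (-0.76 ± 0.08, adjusted p 2.84e-05), as did the acetyltransferase Ep300 (-0.54 ± 0.07, adjusted p 0.000104). With library totals 2 of the partners and coregulators rose and 13 fell, where 2323 of all 16213 genes rose and 8831 fell. Among the enzymes that act on PGC-1, both catalytic AMPK subunits rose, Prkaa2 by 1.46 ± 0.07 (adjusted p 3.70e-07) and Prkaa1 by 0.71 ± 0.09 (adjusted p 7.69e-05), as did the p38 kinase Mapk14 (0.79 ± 0.07, adjusted p 1.33e-05), while the acetyltransferase Kat2a fell (-0.27 ± 0.06, adjusted p 0.00223). With library totals 3 of these enzymes and factors rose and 7 fell, against that same background.

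**Figure D5:**
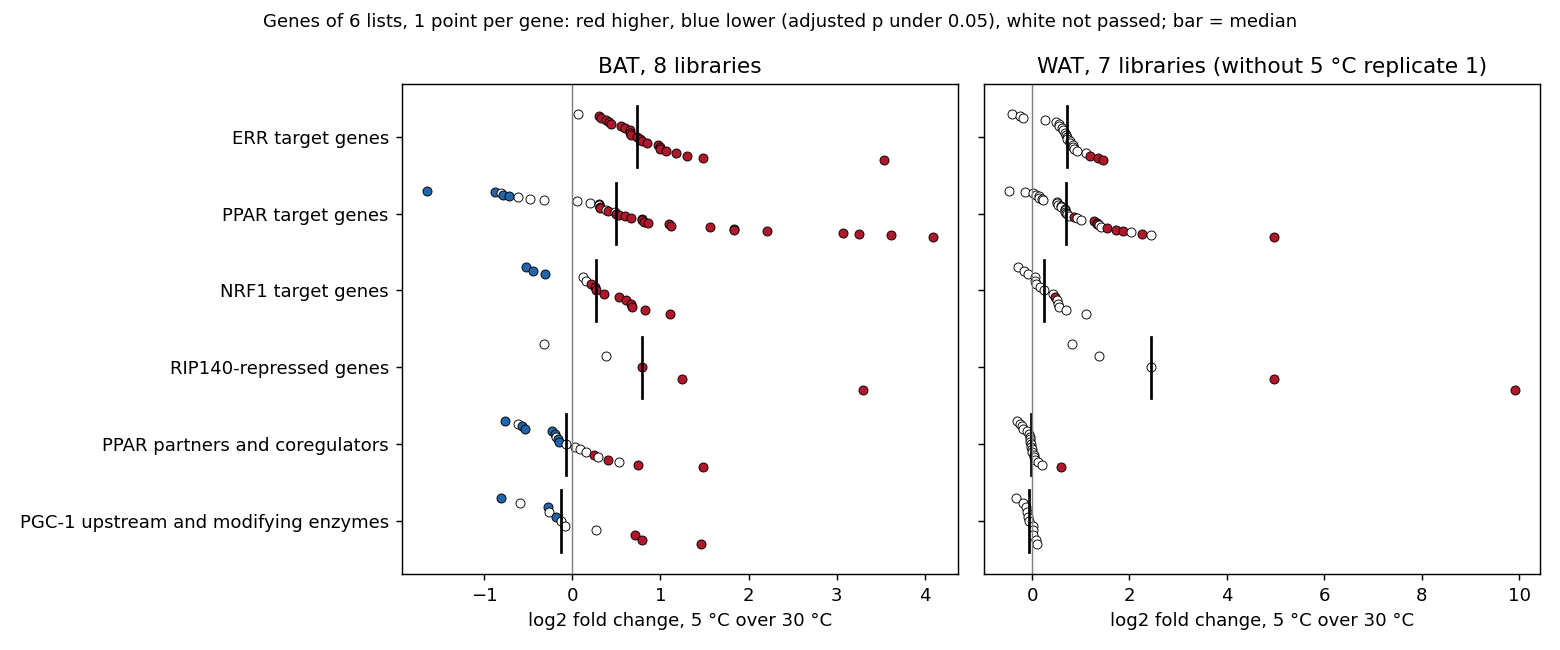
Log2 fold change of 5 °C over 30 °C for the genes of 6 lists, 1 point per gene tested, in BAT (8 libraries) and in WAT without WAT_5C replicate 1 (7 libraries), with a bar at each list's median. In BAT 22 of 23 ERR targets are red, and in WAT 9 of 34 PPAR targets and 3 of 23 ERR targets are. Of all genes, 29.2% rose in BAT and 1.84% in WAT without WAT_5C replicate 1.

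In white fat no gene of the 6 lists passed with all libraries, where 0.0632% of all genes did. The medians were 1.23 for the 34 PPAR targets tested and 1.07 for the 23 ERR targets. Without WAT_5C replicate 1, 9 PPAR targets and 3 ERR targets rose and 0 fell, with medians of 0.70 and 0.72 beside -0.02 over all genes, where 1.84% of all genes rose. Among them were Plin2 (1.73 ± 0.24, adjusted p 0.0194), Slc25a20 (1.54 ± 0.23, adjusted p 0.0222), Cidea (4.96 ± 0.76, adjusted p 0.0246), and Gpd1 (1.87 ± 0.30, adjusted p 0.0275), and of the ERR targets Idh3a (1.36 ± 0.23, adjusted p 0.0326) and Etfdh (1.19 ± 0.23, adjusted p 0.0480). Tfb2m of the NRF1 targets (0.47 ± 0.08, adjusted p 0.0304) and Ucp1 (9.92 ± 1.40, adjusted p 0.0208) rose as well.

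Genes whose level followed a member most closely were ranked by the root mean square difference of log2 CPM, each gene centred on its own mean, over the 16 libraries. For Esrra they were Cox10, Spata17 and Ppif, at 0.10, 0.12 and 0.13, against an SD of 1.22 for Esrra itself. For Ppargc1a they were Pdk2, Fh1 and Ech1, each at 0.35 (own SD 1.63), for Ppargc1b Suclg1 (0.29), Rnf152 and Slc16a1, and for Ppara Coq8a (0.55), Acaa2 and Plin5. For Pparg they were Osbpl1a (0.22), Hagh and Adhfe1, for Ppard Fbxw4 (0.08), Spop and Zfp219, and for Nrip1 Olfml1 (0.24), Ctso and Igf1. Esrrg was closest to Pald1 (0.21), Hpcal4 and Rnf152, Nrf1 to Kmt2b (0.06), U2af2 and Alyref, and Esrrb to Ngef (0.75), Abcc8 and Ttc22, beside an SD of 1.25 for Esrrb. The 16 libraries span both tissues, so differences between the tissues enter this measure.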

How the data were processed

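Poly(A)-selected RNA was sequenced from brown and inguinal white fat. The authors deposited 1 table of raw read counts for 46078 Ensembl genes in 16 libraries. Trim Galore and TopHat are named, without versions, per the submitters' processing notes; counter, strand use, genome build and gene models: not given in the sources used here. Symbols came from a mouse annotation, which named 45143 of the identifiers and left 935 unnamed (0.0403 to 0.117% of counts), and exon lengths from GENCODE on GRCm38.

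Counts were scaled by TMM, filtered (filterByExpr, minimum count 10, minimum total 15) and tested with edgeR 4.0.16 quasi-likelihood F-tests in R 4.3.3, each tissue apart for temperature and all 16 libraries together for the difference of effects and for tissues, with Benjamini-Hochberg adjustment over all genes and a threshold of 0.05. Standard errors are the size of the log2 fold change divided by the root of F. CPM use TMM effective library sizes of the 16 libraries. Ratio tests were exact permutations. Counting precision follows from depths of 54264023 to 71289020. Up to 4 genes per list were named, by smallest adjusted p, and Slc25a4, Angptl4, Adipoq, Aqp7, Plin4, Alas1 and Cpt1b were named after their values were seen. Members and lists were chosen with earlier results of these data known. Alternatives were RLE factors, library totals, no filter, DESeq2 1.42.0, limma 3.58.1 voom with quality weights, 1 fit of all libraries, each library left out, libraries with matching labels, and a replicate block; DESeq2 and voom without WAT_5C replicate 1 and a block within a temperature were added after seeing the data. Residual correlations between equal replicate numbers ran from -0.551 to 0.264 over all pairs of groups. Only brown and white fat of the same temperature could come from the same mouse. Between these they were 0.264, 0.00740, 0.0379 and 0.0653 at 5 °C for replicates 1 to 4. At 30 °C they were -0.213, 0.0689, -0.310 and -0.0889. Numbers were not taken to pair libraries.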

Additional observations from a re-analysis of the deposited data

Results flagged for a closer look

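Samples far from the rest of their group of 4, by the gap to the nearest other sample over the group's range, were looked for in 48 groups, of which chance marks about 1 in 20, and 6 were found. Nrf1 was 22.5 CPM in BAT_30C replicate 2, above the other warm brown fat libraries. Nrip1 was 52.7 CPM in BAT_30C replicate 3, below them. Ppard was 38.0 CPM in WAT_5C replicate 1, above the other cold white fat libraries, and the ratio of Ppargc1a to Ppargc1b counts was 1.27 in that library. Pparg was 112.9 CPM in WAT_30C replicate 4 and Ppargc1a 3.35 CPM in WAT_30C replicate 1, above and below their group.

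The cold effect in BAT minus that in WAT differed by an interaction test for Ppara (-3.90), Ppard (0.76), Esrrb (3.99) and Nrip1 (-1.45), as log2 values with adjusted p of 0.00141, 0.00104, 0.0288 and 0.00291 from edgeR.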

How the results depend on the processing

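The brown fat calls on Ppard, Esrra, Esrrb and Nrip1 held in every setting run. Ppara lost its call in 1 fit of all libraries, and Nrf1 in the 4 libraries with matching labels, where 6058 genes passed. With a library left out 6 or 7 members passed in BAT, where 8742 to 9295 of 16396 to 16613 genes passed. In WAT 0 to 1 members passed, where 0 to 408 of 19180 to 19351 genes did. Genes called in WAT numbered 82 with library totals, 25 without a filter, 1119 with DESeq2, 2268 with voom, 1587 in 1 fit of all libraries and 0 to 408 with a library left out. Members called there were 4 with DESeq2 (5.90% of all genes), 4 with voom (12.0%) and 3 in 1 fit, where 19481 genes were tested. Without WAT_5C replicate 1, DESeq2 called 2407 genes (12.5%) and 4 members and voom 1971 (10.2%) and 4. For the difference of cold effects voom called 6797 genes, and leaving out a library gave 3221 to 6222. There Esrra passed with RLE factors, library totals, DESeq2 and voom (0.49 to 0.69), and Esrrb did not pass with voom (2.63, adjusted p 0.0797). Ppargc1b passed with library totals (-0.84, adjusted p 0.0369) and Esrrg with voom (-0.96, adjusted p 0.0340).

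Changes of sign occurred in values that had not passed, except for Ppard at 30 °C between tissues, which was -0.45 with library totals. With library totals Ppargc1b and Esrrg were -0.18 and -0.23 in BAT, Ppard, Ncoa1 and Mapk14 -0.10, -0.06 and -0.09 in WAT, and Esrrb -0.21 between tissues at 5 °C. Pparg in BAT was 0.01 with RLE factors, DESeq2 and voom and -0.07 to 0.09 with a library left out. Esrrb in WAT was 0.15 with voom and 0.18 with voom without WAT_5C replicate 1, and Nrip1 in WAT was -0.24 to 0.09 with a library left out. The log2 Ppargc1a to Ppargc1b ratio in WAT ran from -0.15 to 0.26. Between tissues at 30 °C, Nrip1 and Nrf1 lost their calls without WAT_30C replicate 4 (-0.50, adjusted p 0.0503) and replicates 1 or 3 (-0.19 and -0.22), and Esrrb with voom (-2.18, adjusted p 0.0510). At 5 °C Pparg lost its call with library totals (0.54, adjusted p 0.0550). Except where a smaller set of libraries is the setting, the cause was not tested.

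With the replicate number as a block, 9091 of 16213 genes and 6 members passed in BAT, and 0 of 18975 and 0 in WAT. For the difference of cold effects 3487 of 19481 genes and 3 members passed, and Esrrb was at 3.96 (adjusted p 0.0533). Between tissues 13410 of 19481 genes and 10 members passed at 30 °C, and 13887 and 9 at 5 °C. A block within a temperature gave 3384 of 19481 genes and 5 members for the difference, where Esrra passed (0.56, adjusted p 0.0492).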
